A study of Arabidopsis thaliana with 6 samples.

Results

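The genes of the chloroplast and the mitochondrion were followed in root RNA sequencing of Arabidopsis thaliana. They were chosen as the IDs of the raw count table that start with ATCG (chloroplast) or ATMG (mitochondrion) and that have a total of at least 10 counts over the 6 libraries. The rule kept 119 of 285 organelle IDs, 62 of 133 from the chloroplast and 57 of 152 from the mitochondrion, out of 32833 IDs in the table. Of the 166 that were left out, 53 had no count in any library. The rule used no comparison between treatments.

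All samples came from wild type plants of the ecotype Col-0, the standard laboratory accession. Roots were taken 3 days after germination, about 100 roots to a sample. Seedlings had spent 1 h in liquid 1/2 MS medium that held the plant hormone auxin as IAA (indole-3-acetic acid) at 1 µM in 3 samples, and 1 h in the same medium without it (mock) in 3 samples. Whole roots mix many cell types, so fewer cells of a type and less RNA per cell cannot be told apart. The labels number the replicates but are silent on separate cultures, so p-values measure only the spread between these samples, which may be technical.

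Plastids and mitochondria keep small genomes of their own, which descend from those of bacteria. These encode ribosomal RNAs, transfer RNAs, some ribosomal proteins and core subunits of photosynthesis or respiration, while nearly all other organelle proteins are made from nuclear genes. Chloroplast genes are read by a bacterial-type polymerase, PEP, which needs nuclear-encoded sigma factors and associated proteins (PAPs), and by a phage-type polymerase, which is also nuclear-encoded. Mitochondrial genes are read by phage-type polymerases only. Root plastids are mostly colourless, and mitochondria supply much of the root's ATP. Organelle messages are as a rule poorly polyadenylated, and here ribosomal RNA was removed from total RNA before library construction.

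Library totals ranged from 20808439 to 20984444 counts, and the members held 59161 counts over all 6 libraries. Root identity was checked with 11 root markers, among them WOX5, a regulator of the root stem cell niche, and EXPA7, a root hair expansin. All 11 had counts in every library, and their summed level was 546 to 757 CPM in IAA libraries and 478 to 551 CPM in mock libraries, where CPM is the count per 1000000 counts of the scaled library total. Single markers could vary far more. The iron transporter gene IRT1 had 8.93, 172 and 183 CPM in IAA libraries 1 to 3. It had 46.6, 35.8 and 99.1 CPM in mock libraries 1 to 3. WOX5 and EXPA7 were the only ones of the 11 called, both higher (edgeR adjusted p = 0.0272 and 0.00828). A list of 6 stomatal and shoot apex markers summed to 0.786 to 1.45 CPM in IAA libraries and to 0.991 to 8.08 CPM in mock libraries; 1 of the 6 could be tested and it was not called. The defining stomatal gene MUTE had 0 counts in the 3 IAA libraries and in mock 1 and 2, and 5 counts in mock 3.

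Many mitochondrial members have a second copy in the nucleus, and the sequences of such copies bear on how far a count can be tied to 1 genome. The reference used here, RefSeq TAIR10.1, pairs none of the 285 organelle IDs with a gene. It names 27 members in its notes on nuclear genes, as the best match of a nuclear protein, 5 in the chloroplast and 22 in the mitochondrion. All 22 nuclear genes matched to mitochondrial members lie on chromosome 2, between 3246019 and 3503476 in TAIR10.1. The pair of ATMG00980, noted as ribosomal protein S12, and AT2G07675 is shown first because the first 100 coding bases of the nuclear gene occur letter for letter in the mitochondrial genome. That mitochondrial stretch lies within the exon of rps12 at MT:288446-288545, plus strand, and the nuclear one at chr2:3270410-3270509, plus strand.
mitochondrial rps12: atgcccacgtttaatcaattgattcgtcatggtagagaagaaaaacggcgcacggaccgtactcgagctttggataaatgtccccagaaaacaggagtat
chromosome 2 copy of rps12: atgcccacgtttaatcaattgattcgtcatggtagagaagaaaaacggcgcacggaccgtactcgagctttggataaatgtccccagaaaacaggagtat

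A second pair is shown because it does carry differences. ATMG01280 is noted as similar to cytochrome c oxidase subunit 2, and its chromosome 2 copy is AT2G07695. The copy aligned with the mitochondrial genome over 876 coding bases with 2 differences, G144T and G399T, given as the mitochondrial base, the position from the first coding base of AT2G07695, and the chromosome 2 base. Bases 104 to 183 are printed, with the differing base in capitals. The mitochondrial stretch is MT:84212-84291, minus strand, outside any annotated gene and within a feature noted as an open reading frame. The nuclear one is chr2:3347054-3347133, plus strand, in the coding sequence.
mitochondrial cox2-like frame: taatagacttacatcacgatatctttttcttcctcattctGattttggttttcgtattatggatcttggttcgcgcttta
chromosome 2 copy of cox2-like frame: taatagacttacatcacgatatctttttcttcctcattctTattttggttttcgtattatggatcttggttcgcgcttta

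Sequence of 100 bases, the length of 1 read, was compared base by base along these nuclear genes. For 11 of the 22 chromosome 2 genes, every window of 100 bases over the gene also occurred unchanged in the mitochondrial genome, and for the other 11 between 82.0% and 98.9% of the windows did. Counts ran in parallel. ATMG00980 had 7, 15 and 24 counts in IAA libraries 1 to 3, against 6, 11 and 11 in mock libraries 1 to 3. AT2G07675 had 7, 15 and 24 counts in IAA libraries and 5, 11 and 11 in mock libraries. The values of the mitochondrial ID and of the nuclear gene thus differed by 1 count in 1 of the 6 libraries. ATMG01280 had 2, 2 and 9 counts in IAA libraries and 5, 3 and 10 in mock libraries, and AT2G07695 had 5, 2 and 8 counts in IAA libraries and 6, 2 and 8 in mock libraries. Both came to 31 counts in all, although 2 coding bases differ.

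Over the 22 pairs, the median ratio of the nuclear to the mitochondrial total was 1.08, and 18 pairs had totals within 2-fold of each other. In 5 pairs the counts differed by at most 2 in each library. The exceptions were AT2G07715, with a total of 564 counts beside 34 for ATMG00560, AT2G07718, with 193 beside 19 for ATMG00590, and AT2G07727, with 145 beside 60 for ATMG00220, noted as apocytochrome b of respiratory complex III. On the other side, AT2G07785 had 2 counts beside 15 for ATMG01275, noted as a subunit of NADH dehydrogenase. How the authors treated reads with several matches is not given in the sources used here. A count of these 22 IDs therefore belongs to the mitochondrial and the chromosome 2 copy together or to an unknown part of it. The 5 chloroplast members with a noted nuclear match differ from this: none aligned with the nuclear gene, whose total was 66.8 to 372 times as high.

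**Figure D1:**
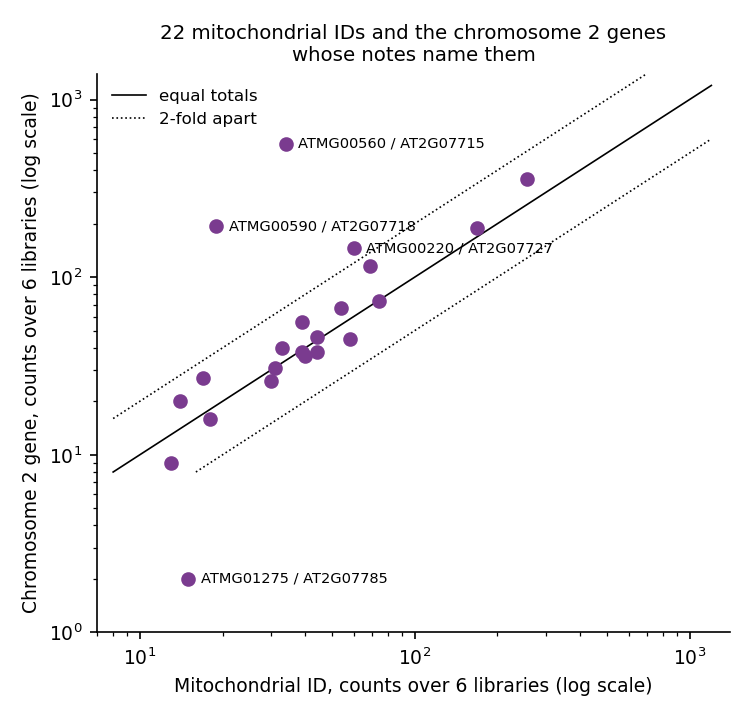
Each point is 1 mitochondrial ID, placed by its total over 6 libraries (horizontal, log scale) and the total of the chromosome 2 gene whose note names it (vertical, log scale). The solid line marks equal totals and the dotted lines a 2-fold difference; 18 of 22 points lie between the dotted lines and the 4 outside are named.

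Within the chloroplast genome, members fell into pairs as well. Of 1891 possible pairs of chloroplast members, 7 had the same count in all 6 libraries and 3 more differed by at most 10% of the smaller total, which together took in 20 IDs. RefSeq lists 10 chloroplast gene symbols at 2 places, 7 of them identical in sequence, as the large inverted repeat of the plastid genome carries its genes in 2 copies. ATCG00950 and ATCG01180 made the largest pair, with totals of 4387 and 4393. In the mitochondrion, 2 of 1596 possible pairs were equal in all libraries, ATMG00170 with ATMG00620 and ATMG09450 with ATMG09730. By the same rule, 2 of 3534 possible pairs joined a chloroplast ID to a mitochondrial ID, ATCG00905 and ATCG01230 with ATMG01280. The sequences of paired IDs were not compared, so a shared measurement was not shown for each pair. Paired IDs are not read as separate evidence.

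Chloroplast IDs made up a very small and very uneven share of the libraries. They held 776, 2053 and 4520 counts in IAA libraries 1 to 3, which is 0.00371%, 0.00987% and 0.0215% of all counts. They held 1579, 672 and 4152 counts in mock libraries 1 to 3, which is 0.00754%, 0.00321% and 0.0198%. Both IDs of each pair entered these sums. Where paired IDs count the same reads, this raises the chloroplast share and the log2 ratio to mitochondrial counts given below. Within each treatment the highest library stood several times above the lowest, and the groups overlapped fully. The means were 0.0117% ± 0.0091 in IAA libraries and 0.0102% ± 0.0086 in mock libraries (SD, n = 3 each), with p = 0.7 in an exact 2-sided permutation test. The smallest p that 3 against 3 samples allow is 0.1. The difference turned to -0.00339 percentage points without IAA replicate 3 and to -0.00196 without mock replicate 2.

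Mitochondrial IDs held 6320, 8181 and 15962 counts in IAA libraries 1 to 3, or 0.0302%, 0.0393% and 0.0761% of all counts. They held 4165, 4283 and 6498 counts in mock libraries 1 to 3, or 0.0199%, 0.0205% and 0.0310%. IAA 2 and IAA 3 stood above all mock libraries, while IAA 1 lay just under mock 3. The mean share was 2.04 times as high, at 0.0485% ± 0.0243 in IAA libraries and 0.0238% ± 0.0062 in mock libraries (SD, n = 3 each), and the exact 2-sided permutation test gave p = 0.2. IAA 3 carried much of it: without that library the difference was 0.0110 percentage points, against 0.0248 with it.

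The balance of both genomes was compared through the log2 ratio of chloroplast to mitochondrial counts. It was -3.03, -1.99 and -1.82 in IAA libraries 1 to 3 and -1.40, -2.67 and -0.65 in mock libraries 1 to 3. Mitochondrial counts were thus the larger in every library. The ranges overlapped, and the exact 2-sided permutation test gave p = 0.4. Between treatments, a different change of both genomes was not detectable with this spread.

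**Figure D2:**
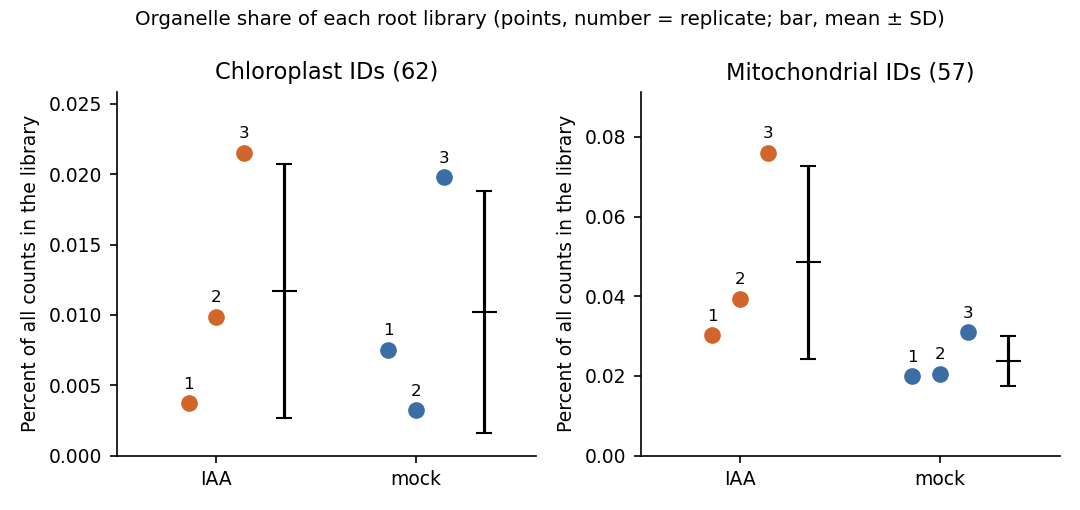
Percent of all counts of a library that fell on the 62 chloroplast IDs (left) and the 57 mitochondrial IDs (right), with IAA left of mock in each panel; points are libraries with their replicate number, and the black bar is the mean ± SD. The chloroplast points of IAA and mock span nearly the same range, and IAA 3 at 0.0761% stands alone among the mitochondrial points.

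The replicates numbered 3 were high in both treatments. For chloroplast members, IAA 3 alone was the highest IAA library in 53 of 62 and mock 3 alone the highest mock library in 59 of 62. The lowest library was IAA 1 for 47 chloroplast members and mock 2 for 44. For mitochondrial members, IAA 3 alone was highest in 34 of 57 and mock 3 in 41 of 57. What sets these libraries apart was not tested.

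Most organelle counts came from few IDs. The 7 IDs of over 1000 counts held 90.6% of all member counts, 4 in the chloroplast and 3 in the mitochondrion. The highest total among the other 112 members was 256, and the median member had 37 counts over 6 libraries. Counts depend on gene length as well as level, and levels were not compared between genes, since neither the files nor the reference give lengths for these IDs. The files and the reference give no product for the 7 leading IDs either, so they are described by ID. Whether they are ribosomal RNA genes, with RNA left over from the removal step, was not tested. The shares and the log2 ratio above rest mostly on these IDs, so they may not reflect the levels of organelle messages.

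ATMG00020 had the most counts of all organelle IDs, with 2888, 4648 and 9055 in IAA libraries 1 to 3 and 1766, 1841 and 3261 in mock libraries 1 to 3. IAA 2 and IAA 3 exceeded every mock library, and IAA 1 did not reach mock 3. Its log2 fold change was 1.304 with a standard error (SE) of 0.49, and it did not pass edgeR's quasi-likelihood test (adjusted p = 0.246). Without IAA replicate 3 the log2 fold change was 0.74.

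ATMG01390 had 2374, 2173 and 4744 counts in IAA libraries and 1354, 1458 and 2076 in mock libraries. Each IAA library exceeded each mock library, and IAA 3 stood well above the other IAA libraries. The log2 fold change was 0.96 (SE 0.35), short of the threshold in edgeR's quasi-likelihood test (adjusted p = 0.232). DESeq2 gave the same size of change and an adjusted p of 0.0239, and the authors' deposited table lists an adjusted p of 0.0237. Without IAA replicate 3 the log2 fold change was 0.50 in edgeR.

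ATMG00030 differed from both, with 650, 686 and 1301 counts in IAA libraries and 703, 669 and 594 in mock libraries. Only IAA 3 stood apart, and the other 5 libraries lay close together. Its log2 fold change was 0.46 (SE 0.28; edgeR adjusted p = 0.480).

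The 4 leading chloroplast IDs behaved as 2 pairs. ATCG00950 had 193, 698 and 1522 counts in IAA libraries and 432, 174 and 1368 in mock libraries, and ATCG01180 had 194, 699 and 1526 in IAA libraries and 432, 173 and 1369 in mock libraries. ATCG00920 had 95, 156 and 394 counts in IAA libraries and 191, 83 and 372 in mock libraries, and ATCG01210 had 96, 155 and 392 in IAA libraries and 190, 83 and 367 in mock libraries. In both pairs the spread within a treatment exceeded any difference between treatments. The log2 fold changes were 0.32 (SE 0.99) for ATCG00950 and 0.03 (SE 0.72) for ATCG00920.

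**Figure D3:**
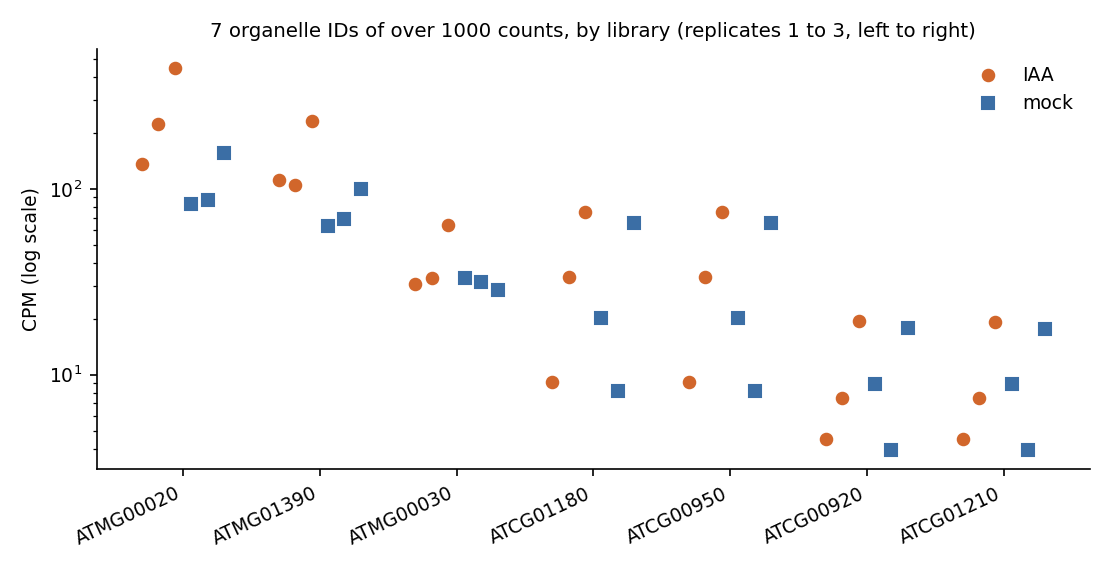
CPM (log scale) of the 7 organelle IDs of over 1000 counts, with 3 IAA libraries (circles) left of 3 mock libraries (squares) for each ID and replicates 1 to 3 from left to right. IAA and mock separate fully for ATMG01390 only, and both chloroplast pairs show the same points for both partners.

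Without the 7 leading IDs, the rest of the chloroplast members came to 198, 345 and 686 counts in IAA libraries 1 to 3 and to 334, 159 and 676 in mock libraries 1 to 3. The order of the libraries was the same as with the leading IDs. The rest of the mitochondrial members came to 408, 674 and 862 counts in IAA libraries and to 342, 315 and 567 in mock libraries. Here too IAA 2 and IAA 3 were above all mock libraries, the ratio of the mean levels was 1.62, and the exact 2-sided permutation test gave p = 0.2.

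Single members were tested with edgeR across all 19778 genes that passed its low-count filter, at a Benjamini-Hochberg adjusted p under 0.05. Of the members, 40 passed that filter, 19 from the chloroplast and 21 from the mitochondrion, and 79 did not. The filter asks for a minimum level in as many libraries as a treatment has. A member can thus enter through the treatment where it is high. No member was called. Over all tested genes, 3.24% were called higher and 0.991% lower. Before adjustment, at p under 0.05, edgeR had 3 mitochondrial members higher, ATMG00020, ATMG01200 and ATMG01390, and none lower. No chloroplast member passed even that level; the background is 9.88% of all tested genes higher and 7.57% lower. DESeq2 called 1 member, ATMG01390, where 4.86% of its tested genes were called higher and 2.46% lower. limma-voom called 0 members, where it called 3.04% of genes higher and 0.88% lower. The median SE of the log2 fold change was 0.81 for chloroplast members and 0.53 for mitochondrial ones, against 0.15 over all tested genes, so changes of ordinary size were not detectable at this depth and spread.

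The log2 fold change was above 0 in 19 of 21 tested mitochondrial members, with a median of 0.77, and in 16 of 19 tested chloroplast members, with a median of 0.24. Over all tested genes 48.3% were above 0 and the median was -0.01. With each pair of equal or nearly equal counts counted once, it was above 0 in 19 of 20 mitochondrial members, with a median of 0.82, and in 11 of 14 chloroplast members, with a median of 0.19. Members of 1 genome share their library's organelle content and are not independent. The tallies also include members that passed the filter mainly through IAA libraries, such as ATMG01200 and ATMG00210. When each genome was scaled to its own total, 5 of 18 mitochondrial and 6 of 13 chloroplast members that could be fitted were above 0; that scaling takes out any change of a genome's total, most of which comes from the leading IDs. The chloroplast count also rested on single libraries: 4 of 19 were above 0 without IAA replicate 3, and 5 of 19 without mock replicate 2. The mitochondrial count was 17 to 19 of 21 with any 1 library left out.

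**Figure D4:**
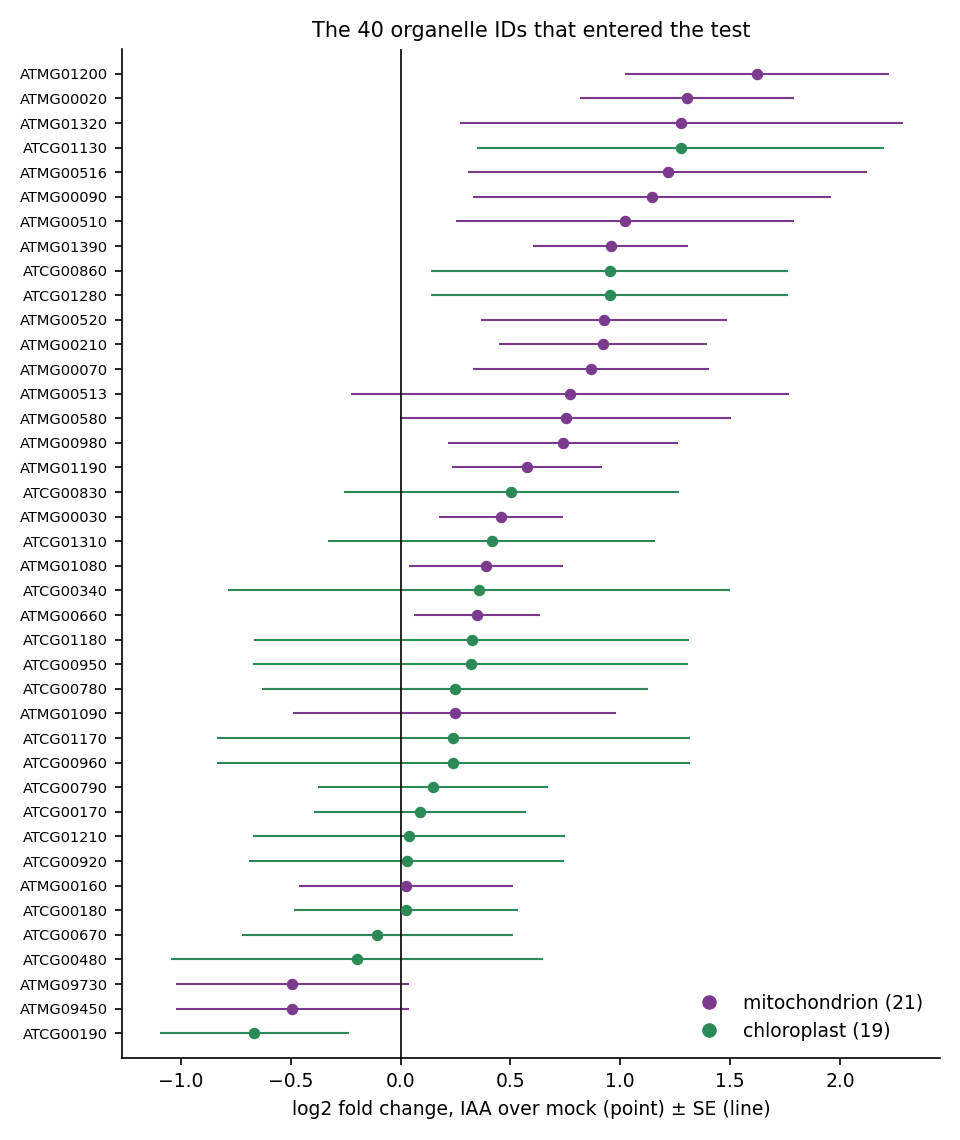
log2 fold change of IAA over mock (point) with its standard error (line) from edgeR for the 40 organelle IDs that entered the test, sorted by size, with mitochondrial IDs in purple and chloroplast IDs in green. Mitochondrial IDs fill most of the upper part, and no point passed the adjusted threshold.

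ATMG01200 had the largest log2 fold change among tested members, 1.62 (SE 0.60; edgeR adjusted p = 0.214). It had 12, 17 and 20 counts in IAA libraries and 3, 11 and 2 in mock libraries, so each IAA library exceeded each mock library by at least 1 count. The groups did not overlap in 2 tested members, ATMG01200 and ATMG01390, both with IAA above mock, beside 12.3% of all tested genes above and 9.83% below. ATMG01200 entered the test mainly through its IAA libraries, so its size of change and lack of overlap are not free of the filter. Among the 79 members too low to be tested, ATMG00290, ATMG00690 and ATMG00830 did not overlap. The share among all genes too low to be tested was not computed, so this is not read as a result about these members. ATMG00690 had 9, 10 and 14 counts in IAA libraries and 3, 4 and 6 in mock libraries. ATMG00830 had 13, 1 and 15 counts in IAA libraries and 1, 1 and 0 in mock libraries, where scaling by library size alone separates IAA 2 from mock 1 and 2.

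Respiratory chain and ATP synthase genes were read through their noted products. ATP synthase subunit 1, the alpha subunit of the enzyme's catalytic head (ATMG01190), had 41, 36 and 75 counts in IAA libraries and 35, 30 and 39 in mock libraries. IAA 3 stood out and the other 5 libraries were close (log2 fold change 0.58, SE 0.34; edgeR adjusted p = 0.451). The nuclear copy AT2G07698 had 56, 58 and 111 counts in IAA libraries and 39, 46 and 49 in mock libraries, with a log2 fold change of 0.78 (SE 0.32; edgeR adjusted p = 0.268).

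Subunit 9, which forms the rotating ring in the membrane (ATMG01080), had 26, 26 and 43 counts in IAA libraries and 33, 19 and 22 in mock libraries. Its treatments overlapped (log2 fold change 0.39, SE 0.35). A second ID noted as subunit 9, ATMG01090, had 7, 4 and 18 counts in IAA libraries and 13, 10 and 2 in mock libraries. Subunit 6, part of the proton channel (ATMG00410), had 5, 3 and 16 counts in IAA libraries and 2, 6 and 7 in mock libraries. Subunit 8, in the stator of the same enzyme (ATMG00480), had 6, 3 and 9 counts in IAA libraries and 2, 2 and 8 in mock libraries. In the last 3, treatments overlapped.

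NADH dehydrogenase subunit 2, in the membrane arm of complex I (ATMG01320), had 1, 26 and 14 counts in IAA libraries and 2, 3 and 12 in mock libraries. Its highest level was 26.6 times its lowest, and its log2 fold change of 1.28 had an SE of 1.01. Subunit 3 of the same complex (ATMG00990) had 1, 8 and 12 counts in IAA libraries and 1, 9 and 8 in mock libraries. Apocytochrome b (ATMG00220) had 7, 9 and 28 counts in IAA libraries and 2, 5 and 9 in mock libraries. Cytochrome c oxidase subunit 3, a core subunit of complex IV (ATMG00730), had 7, 3 and 12 counts in IAA libraries and 2, 3 and 6 in mock libraries. IAA 3 was the highest library in the last 3 of these, and both treatments overlapped in all 4.

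Mitochondrial ribosomal proteins were also at low counts. L5 of the large subunit (ATMG00210) had 12, 16 and 17 counts in IAA libraries and 4, 7 and 13 in mock libraries, where IAA 1 lay under mock 3 (log2 fold change 0.92, SE 0.47; edgeR adjusted p = 0.373). S12 of the small subunit (ATMG00980), shown above with its sequence, had a log2 fold change of 0.74 (SE 0.52) and its nuclear copy AT2G07675 one of 0.79 (SE 0.55). S4 (ATMG00290) had 5, 5 and 21 counts in IAA libraries and 5, 4 and 4 in mock libraries, so IAA 3 stood apart, and IAA 1 and IAA 2 had the same count as mock 1 and exceeded it only through scaling by library size. ATMG00560, noted as an OB-fold nucleic acid-binding protein, had 8, 5 and 10 counts in IAA libraries and 1, 2 and 8 in mock libraries, with overlap.

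Some other mitochondrial IDs without a noted product were read by their counts. ATMG00510 had 11, 48 and 53 counts in IAA libraries and 10, 8 and 38 in mock libraries (log2 fold change 1.02, SE 0.77). ATMG00090 had 8, 24 and 70 counts in IAA libraries and 8, 12 and 27 in mock libraries (log2 fold change 1.15, SE 0.82). IAA 1 lay within the range of mock for both. ATMG00660 was the steadiest tested member, with 29, 27 and 34 counts in IAA libraries and 30, 19 and 23 in mock libraries, and its highest level was 1.86 times its lowest. The median of this ratio was 5.20 over tested mitochondrial members and 7.51 over tested chloroplast members, for those with no library at 0.

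In the chloroplast, ATCG00190 had the lowest log2 fold change, -0.67 (SE 0.43; edgeR adjusted p = 0.499). It had 27, 33 and 34 counts in IAA libraries and 67, 21 and 64 in mock libraries, so mock 2 was the lowest of all. ATCG00480 had 10, 29 and 26 counts in IAA libraries and 31, 2 and 43 in mock libraries, a wide range within mock that left its log2 fold change of -0.20 with an SE of 0.84. Its sign turned with limma-voom and without IAA replicate 1 or mock replicate 3.

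ClpP, the plastid-encoded proteolytic subunit of the Clp protease (ATCG00670), had 6, 5 and 19 counts in IAA libraries and 12, 6 and 15 in mock libraries. Ribosomal protein L2 (ATCG01310) had 7, 13 and 35 counts in IAA libraries and 8, 7 and 27 in mock libraries. Its near twin ATCG00830 had 7, 12 and 34 in IAA libraries and 7, 6 and 25 in mock libraries. Ribosomal protein S11 (ATCG00750) had 0, 2 and 10 counts in IAA libraries and 3, 2 and 11 in mock libraries. In each of these, replicate 3 was the highest library of its treatment.

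The 79 untested members were low throughout. The 43 of the chloroplast had totals of 10 to 49 and never more than 19 counts in a library, and 27 of them had a library at 0. They summed to 83, 131 and 310 counts in IAA libraries and to 126, 77 and 322 in mock libraries. The 36 of the mitochondrion had totals of 11 to 64, and 12 of them had a library at 0. They summed to 161, 198 and 338 counts in IAA libraries and to 100, 114 and 211 in mock libraries. At the minimum of the rule, 7 members had totals of 10 to 12 and 6 IDs with 8 or 9 counts fell just outside.

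Nuclear genes for plastid functions also varied between libraries. For photosynthesis genes the order of the libraries differed from that of the chloroplast members in IAA only. A list of 16 nuclear photosynthesis genes, which encode small subunits of Rubisco and light-harvesting proteins of both photosystems, summed to 381, 1348 and 472 CPM in IAA libraries 1 to 3 and to 2371, 437 and 3838 CPM in mock libraries 1 to 3. Mock 1 and mock 3 were far above mock 2. RBCS1A, a small subunit of Rubisco, had 642, 6152 and 851 counts in IAA libraries and 15805, 872 and 20482 in mock libraries. LHCB1.3, a light-harvesting protein of photosystem II, had 2281, 4313 and 1553 counts in IAA libraries and 9508, 1676 and 16887 in mock libraries. None of the 16 genes was called, with a median log2 fold change of -1.40.

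Beside these, chloroplast members without the leading IDs summed to 9.35, 16.7 and 33.7 CPM in IAA libraries and to 15.7, 7.50 and 32.5 CPM in mock libraries. In mock both sums were highest in mock 3 and lowest in mock 2. Among IAA libraries the photosynthesis list was highest in IAA 2, and the chloroplast members were highest in IAA 3. The stomatal and shoot apex markers were also highest in mock 3. The part of green tissue in the chloroplast counts was not tested.

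**Figure D5:**
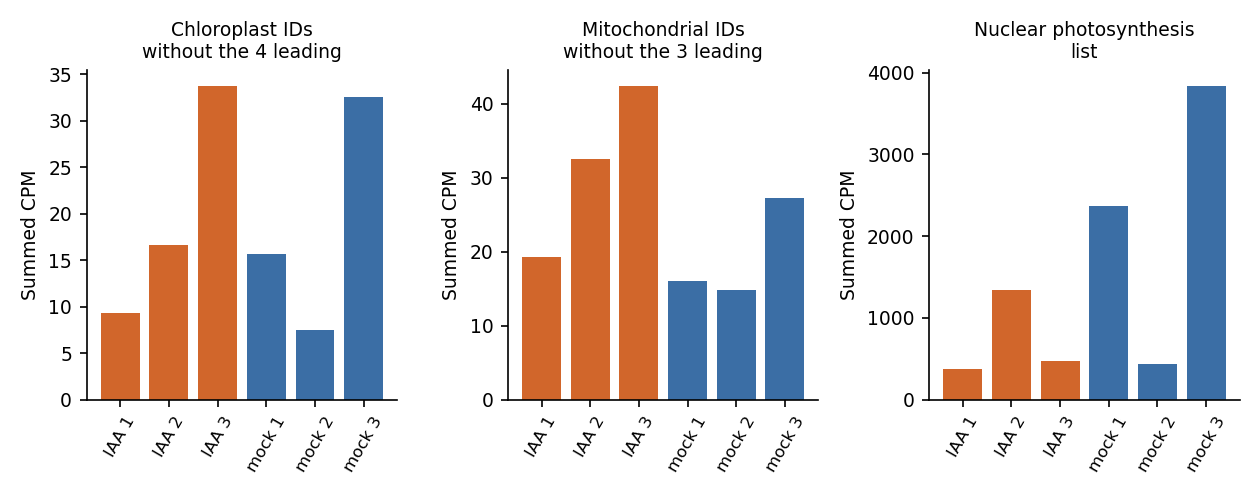
Summed CPM in each library, with IAA libraries left of mock libraries, for the chloroplast members without the 4 leading IDs, the mitochondrial members without the 3 leading IDs, and 16 nuclear photosynthesis genes; each panel has its own scale from 0. The chloroplast sum peaks in IAA 3 and mock 3, while the photosynthesis sum peaks in IAA 2 and mock 3.

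Nuclear genes for organelle transcription were read next. Of 12 PAPs, edgeR called 0, all 12 had a log2 fold change below 0, and the median was -0.46. Their summed level was 112, 132 and 126 CPM in IAA libraries and 167, 129 and 203 CPM in mock libraries, with mock 1 and mock 3 again the highest. PAP8 had 306, 335 and 350 counts in IAA libraries and 452, 403 and 549 in mock libraries, without overlap (log2 fold change -0.48, SE 0.15; edgeR adjusted p = 0.140). PAP1, PAP4, PAP9 and PAP12 did not overlap either. Over all tested genes, 9.83% had IAA below mock without overlap. PAP11 had 337, 340 and 314 counts in IAA libraries and 431, 316 and 484 in mock libraries (log2 fold change -0.29, SE 0.17).

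Of 6 sigma factors, 0 were called and the median log2 fold change was -0.44. SIG5 alone was above 0, at 0.48 (SE 0.19). SIG4 was the lowest, at -2.08 (SE 0.86) on counts of 3 to 49 per library. SIG2 had 221, 324 and 285 counts in IAA libraries and 400, 282 and 445 in mock libraries (log2 fold change -0.41, SE 0.22). SIG1 had 352, 259 and 198 counts in IAA libraries and 265, 298 and 268 in mock libraries, with a log2 fold change of -0.02. The summed level of the sigma factors was 44.3, 52.5 and 47.6 CPM in IAA libraries and 56.3, 48.6 and 64.4 CPM in mock libraries.

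Of 3 phage-type polymerases, 0 were called by edgeR. RPOTp, the plastid enzyme, had 286, 326 and 286 counts in IAA libraries and 469, 406 and 417 in mock libraries, without overlap. Its log2 fold change was -0.50 (SE 0.12; edgeR adjusted p = 0.0601), and DESeq2 called it at an adjusted p of 0.0238. The background without overlap and with IAA below mock was 9.83% of all tested genes. RPOTm, the mitochondrial enzyme, had 574, 632 and 544 counts in IAA libraries and 583, 611 and 598 in mock libraries, a log2 fold change of -0.01 (SE 0.10).

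Organelle nucleases, which trim and degrade organelle transcripts, had 0 of 4 called, with a median log2 fold change of -0.20. RNR1, an exoribonuclease that matures organelle RNA, had 320, 321 and 320 counts in IAA libraries and 386, 310 and 333 in mock libraries. The mitochondrial polynucleotide phosphorylase had 386, 480 and 426 counts in IAA libraries and 488, 391 and 645 in mock libraries. IAA and mock overlapped for both genes.

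Nuclear respiratory genes were taken as a list of 18, for subunits of the respiratory complexes and ATP synthase, cytochrome c and the alternative oxidase AOX1A; some belong to no complex with a mitochondrial member here. Of the 18, edgeR called 0, and their median log2 fold change was 0.04, within a range of -0.07 to 0.26, the highest being AOX1A. Their summed level was 6568, 7000 and 7535 CPM in IAA libraries and 6593, 6654 and 7192 CPM in mock libraries. The ATP synthase beta subunit gene AT5G08670 had 21823, 22997 and 24649 counts in IAA libraries and 21191, 20786 and 23732 in mock libraries (log2 fold change 0.11, SE 0.11). IAA 3 and mock 3 were the highest of their treatments here too, by far less than among the mitochondrial members.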

How the data were processed

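The deposited table holds whole-number counts of reads for each gene ID and sample, with 2 technical runs already summed. The submitters' processing notes name STAR 2.5.2b and DESeq2 1.26.0, with FastQC and SAMtools, and TAIR10 as build. No counting tool, annotation, strand setting or handling of reads with several matches is stated there. The authors' deposited comparison lists, per the file headers, a mean normalized signal, a log2 fold change with its error, a score (the Wald statistic), a p-value and an adjusted p-value for each gene.

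Counts were tested with edgeR 4.0.16 in R 4.3.3 (quasi-likelihood, robust, TMM, filterByExpr, group as the only term, Benjamini-Hochberg adjustment), beside limma-voom 3.58.1 and DESeq2 1.42.0. The SE was derived from each F statistic, as the size of the log2 fold change over the root of F. On simulated counts for this comparison, with 19633 genes in the fit, 65 of 100 changes of log2 1 and 88 of 97 of log2 2 were recovered, with 10 false calls. The changed genes were drawn at random from all filtered genes, so these rates do not apply to the members. The median SE was 0.81 for tested chloroplast members and 0.53 for mitochondrial ones, against 0.15 over all tested genes. Shares were compared with exact permutation tests. Notes and sequences come from RefSeq TAIR10.1, read with Python 3.11.15 and BLAST 2.17.0. Counts depend on sampling, so totals near the minimum of 10 carry large counting error.

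The members and gene lists were chosen with earlier results of these data known. Named members were to be the 2 highest per functional group and, per genome, the 3 highest and 3 lowest log2 fold changes among tested IDs of average log2 CPM of at least 0, with the 2 highest of each nuclear list. For want of products and lengths, groups follow the noted products only and counts replace levels per kilobase. The 7 leading IDs, ATMG01200 and the other IDs given without overlap or with a noted product were added after their values were seen. Functional shares within a genome and a setting without ribosomal RNA genes were not run for the same reason.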

Additional observations from a re-analysis of the deposited data

How the results depend on the processing

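The count of called members was 0 in both genomes and directions under RLE, library totals, nuclear scaling, scaling of each genome to its own total, both filters, limma-voom, an adjusted p under 0.01, a 2-fold minimum and each left-out library (range 0 to 0). It became 1 mitochondrial member higher with DESeq2 and 2 with the replicate block, ATMG00020 (adjusted p = 0.0334) and ATMG01390 (adjusted p = 0.0370). Same-numbered libraries correlated in their deviations from the group means at 0.09, -0.45 and 0.20. Libraries of different numbers correlated at -0.37 to 0.33. Values that are so few and differ in sign cannot decide whether the numbers pair the samples, and the labels do not say. With the replicate block, differences within numbers gave exact sign-flip p = 0.75 for the chloroplast share, 0.25 for the mitochondrial share and 0.5 for the log2 ratio; 0.25 is the smallest that 3 pairs allow.

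Leaving out 1 library moved the chloroplast difference between -0.00339 and 0.00633 percentage points, the mitochondrial one between 0.0110 and 0.0339, and the log2 ratio between -1.26 and -0.24. Every other set of IDs or denominator kept the direction of all 3, but the chloroplast difference nearly vanished when all paired IDs were left out. Among the sets, leaving out the 7 leading IDs, counting pairs once and adding the chromosome 2 genes were chosen after seeing the data. With each genome scaled to its own total, log2 fold changes turned to -0.24 for ATCG00920, -0.23 for ATCG01210, -0.63 for ATMG00030, -0.034 for ATMG00090, -0.61 for ATMG00660, -0.34 for ATMG00980, -0.65 for ATMG01080, -0.46 for ATMG01190 and -0.069 for ATMG01390. ATCG00480 turned to 0.44 with limma-voom and 0.018 with the replicate block. Leaving out 1 library turned the sign of 12 named genes, none of them called, with log2 fold changes from -0.73 to 0.43 for ATCG00480, -0.97 to 0.21 for ATCG00670, -0.76 to 0.70 for ATCG00920, -0.54 to 1.46 for ATCG00950, -0.53 to 1.47 for ATCG01180, -0.74 to 0.70 for ATCG01210 and -0.46 to 1.32 for ATCG01310. In nuclear genes they ran from -0.24 to 0.16 for SIG1, -0.072 to 0.032 for RPOTm, -0.13 to 0.012 for RNR1, -0.016 to 0.079 for the ATP synthase gene AT5G08690 and -0.36 to 0.0079 for the mitochondrial polynucleotide phosphorylase. In these the cause was not tested. The setting without ribosomal RNA genes was not run, and the log2 ratio has no denominator to change. Depth limits most members: the median had 37 counts over 6 libraries.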
